A study of Sus scrofa with 12 samples.

Results

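The transcription factor genes KLF2 and KLF4, the nitric oxide synthase gene NOS3 and the thrombomodulin gene THBD were followed across 3 levels of wall shear stress (WSS) in porcine arterial endothelial cells (ECs). These 4 genes were chosen by name, as established flow-responsive genes, out of the 21153 genes of the count table, and each was read in all 12 libraries. The choice was made with earlier results of these data known. The cells were primary cultures from 3 donor pigs with no stated genetic change. Cultures of every donor were exposed for 48 h to laminar flow at 2 dyne/cm2 (low aneurysmal WSS), 30 dyne/cm2 (physiological WSS) or 80 dyne/cm2 (supra-high aneurysmal WSS), and each donor had 2 separate cultures at 30 dyne/cm2. The methods describe coronary arteries of 8-month-old slaughterhouse pigs and the sample labels aortic ECs, so the vessel is given here only as an artery. Set 1 of the cultures at 30 dyne/cm2 served as control for 2 dyne/cm2 and set 2 as control for 80 dyne/cm2, with every comparison made within a donor. Per the series design, cells for 2 and 80 dyne/cm2 were seeded at different densities in different flow slides, each with its own physiological control, whereas the methods name a single slide. The labels do not say which set was run in which slide.

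KLF2 and KLF4 are zinc finger transcription factors that steady laminar flow is known to induce in ECs, through the kinase MEKK3, MEK5 and ERK5 and the MEF2 factors. They are known to raise NOS3, the endothelial enzyme that makes the vasodilator nitric oxide, and THBD, the membrane receptor that turns thrombin from a clotting enzyme into an activator of protein C. Low or disturbed flow is known to lower this program in arterial endothelium, and a vessel wall with less of it is regarded as more prone to inflammation and clotting.

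KLF2 (ENSSSCG00000038911) lies on chromosome 2 between 61270733 and 61273037 of the pig assembly Sscrofa11.1. KLF4 (ENSSSCG00000005437) lies on chromosome 1 between 248604817 and 248609574. NOS3 (ENSSSCG00000016450) lies on chromosome 18 between 6209218 and 6228912. THBD, looked up by its symbol, lies on chromosome 17 between 30219870 and 30223499. Its counts are those of ENSSSCG00000007115, and whether that ID lies at this position was not checked. A count for a gene covered all its annotated exons, so isoforms were not separated.

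The libraries held between 29606854 and 41058902 counted reads each. At this depth the lowest member value was KLF2 at 106 reads in donor 1 at 2 dyne/cm2, and every other value of the 4 genes rested on more reads. Of 15 endothelial marker genes, 12 were in the table, led by PECAM1 and CDH5. CDH5, the cadherin of endothelial junctions, stood at 1695 ± 211 CPM (read counts scaled to a common library size after TMM normalization, SD, n = 3) at 2 dyne/cm2 and at 1940 ± 328 CPM at 80 dyne/cm2. The summed endothelial markers lay between 5760 and 6766 CPM at 2 dyne/cm2, between 7464 and 9081 CPM over both sets at 30 dyne/cm2 and between 9367 and 10073 CPM at 80 dyne/cm2. They were thus lowest and highest in the same conditions as the 4 genes, and their part in the results was not tested. The 7 smooth muscle markers summed to 49.7 to 86.7 CPM, most of it SMTN at 44.1 to 83.2 CPM, while ACTA2 and MYH11 stayed at or under 0.437 and 0.800 CPM and DES had 0 reads in every library. The 8 leukocyte markers summed to 8.35 to 11.6 CPM at 2 dyne/cm2 and to 13.3 to 28.9 CPM in the other conditions, most of it CD68 at 4.83 to 21.7 CPM, while PTPRC and CD3E had at most 2 reads in any library. The leukocyte sum was thus also lowest at 2 dyne/cm2, and its part in the results was not tested. The summed list of 9 fibroblast and pericyte markers ranged from 16.0 to 223 CPM, and its ranges overlapped between conditions. COL1A2 alone ranged from 1.17 to 204 CPM. Within donors, COL1A1, COL1A2 and PDGFRA were higher at 2 and lower at 80 dyne/cm2 in 3 of 3 donors. CSPG4 went the other way in both comparisons. The part of these markers in the results was not tested. In RNA of whole cultures, fewer cells expressing a gene and less RNA per cell cannot be told apart.

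At low WSS, 3 of the 4 genes fell. KLF2 fell by 4.35 on the log2 scale (20.5-fold lower), the most of the 4, followed by KLF4 (6.15-fold lower) and NOS3 (3.63-fold lower). THBD was 2.17-fold lower in the fit but did not pass the test. A gene was counted as called where its adjusted p in edgeR's quasi-likelihood test was under 0.05 and its change was at least 2-fold. Of the 11226 genes tested at 2 dyne/cm2, 9.6% were called and 4.54% were called lower, against 3 of these 4 genes called lower.

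KLF2 was close to lost at 2 dyne/cm2. Its level there was 2.72 CPM in donor 1, 11.9 CPM in donor 2 and 8.68 CPM in donor 3. In the matched cultures at 30 dyne/cm2 it was 153, 109 and 170 CPM in the same order of donors. The groups did not come near each other, and what remained of KLF2 was 1.78% of the control level in donor 1, 10.9% in donor 2 and 5.10% in donor 3. The fitted log2 fold change was -4.35 (SE 0.53, 95% interval -5.72 to -2.98, adjusted p = 0.00906), the 28th lowest of all genes tested.

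KLF4, the closest relative of KLF2 in endothelial function, fell less. It stood at 25.2, 49.8 and 32.1 CPM in donors 1, 2 and 3 at 2 dyne/cm2, against 253, 166 and 230 CPM in their controls. All low-flow cultures lay below all controls, with 9.96%, 30.0% and 14.0% of the control level left. The log2 fold change was -2.62 (SE 0.33, 95% interval -3.46 to -1.78, adjusted p = 0.00924). Within each donor KLF2 fell further than KLF4, by 2.48, 1.46 and 1.45 log2 units in donors 1, 2 and 3, a difference given as a description.

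NOS3 fell in all 3 donors. Its level was 237, 286 and 478 CPM in donors 1, 2 and 3 at 2 dyne/cm2 and 1206, 779 and 1703 CPM in the controls. No low-flow culture reached the lowest control, although donor 3 kept the highest NOS3 of the 3 donors in both conditions. The log2 fold change was -1.86 (SE 0.20, 95% interval -2.37 to -1.35, adjusted p = 0.00721).

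THBD behaved less evenly between donors. It was 244, 274 and 416 CPM in donors 1, 2 and 3 at 2 dyne/cm2, against 1141, 363 and 717 CPM in the controls. Every donor had less THBD at 2 dyne/cm2, but the low-flow culture of donor 3 exceeded the control of donor 2, so the groups overlapped. Donor 1 had a 4.68-fold lower level, donor 3 a 1.73-fold and donor 2 a 1.33-fold lower one. The log2 fold change was -1.11 (SE 0.37, 95% interval -2.07 to -0.16) with an adjusted p of 0.0861, which missed the threshold. Leaving out donor 1 moved this value to -0.58 (adjusted p = 0.0963). The call also depended on the test, since DESeq2 with the same donor term gave -1.11 with an adjusted p of 0.00279 and called it.

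Libraries at 2 dyne/cm2 lay wholly below their controls for 19.9% of all genes tested, and for KLF2, KLF4 and NOS3 among the 4. All 4 genes shared an order of donors: donor 1 had the largest fold difference between 2 and 30 dyne/cm2, donor 3 the next and donor 2 the smallest. The share of all genes with this order was not computed. The 4 genes were read in the same libraries, so they are not separate observations of it.

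**Figure D1:**
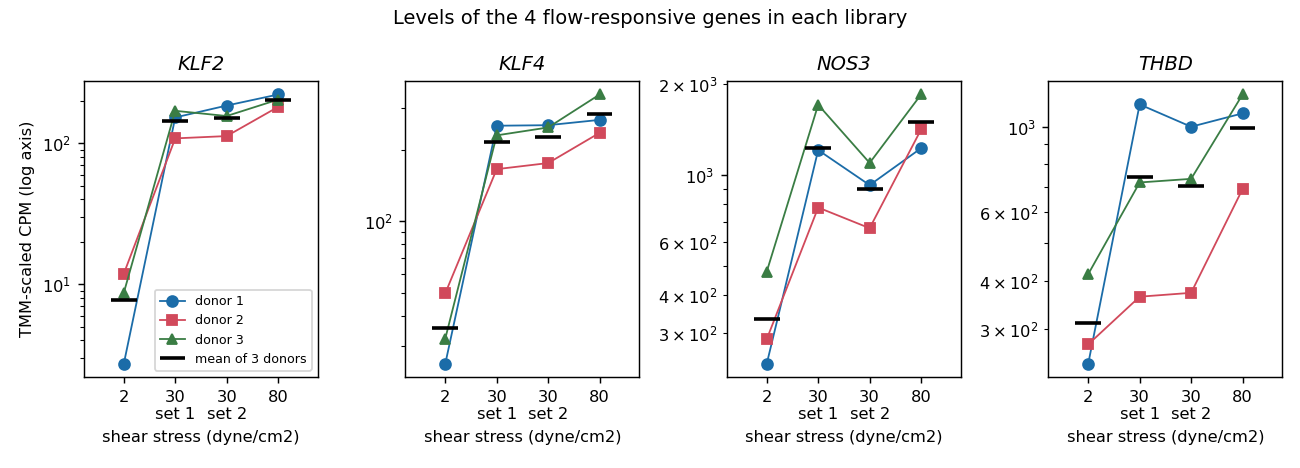
Level of KLF2, KLF4, NOS3 and THBD in each of the 12 libraries, as TMM-scaled CPM on a log axis that differs between panels, against shear stress in dyne/cm2. Lines join the cultures of a donor and black bars are means of 3 donors: every donor was lowest at 2 dyne/cm2 for every gene, while the values at 80 dyne/cm2 overlapped those of set 2 at 30 dyne/cm2 for KLF2, KLF4 and THBD and not for NOS3.

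At supra-high WSS all 4 genes were higher than in the matched cultures in 3 of 3 donors, and no fitted change reached 2-fold. In single donors, NOS3 alone passed 2-fold, in donor 2 (2.12-fold). NOS3 was 1.67-fold higher, THBD 1.49-fold, KLF2 1.36-fold and KLF4 1.24-fold. KLF2 and NOS3 passed the adjusted p threshold, and KLF4 and THBD did not. THBD was past that threshold with DESeq2, with the likelihood ratio test and with no filter. Without donor 1 all 4 genes were past it (adjusted p = 0.00581 for KLF4 and 3.35e-07 for THBD with edgeR). That fit rested on 2 donors only and left out the donor with the smallest change for all 4 genes. Of the 11187 genes tested at 80 dyne/cm2, 2.2% were called, 1.14% were called higher and 8.4% had an adjusted p under the threshold whatever the fold. At 2 dyne/cm2 that last share was 25.8%. The count called among the 4 genes was 0 with edgeR, and 4 of 4 had an unadjusted p under 0.05; DESeq2 called none of them either, since every fold stayed under 2.

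KLF2 reached 222, 182 and 205 CPM in donors 1, 2 and 3 at 80 dyne/cm2, against 186, 113 and 156 CPM in set 2 at 30 dyne/cm2. Donor 2 at 80 dyne/cm2 was below the control of donor 1, so the groups overlapped by a small margin. The log2 fold change was 0.44 (SE 0.10, 95% interval 0.20 to 0.68, adjusted p = 0.0428). KLF4 was 268, 236 and 342 CPM against 254, 176 and 249 CPM. Donor 1 hardly differed between the conditions (1.05-fold), and the fit gave 0.32 (SE 0.10, 95% interval 0.07 to 0.56, adjusted p = 0.109).

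NOS3 was 1224, 1411 and 1842 CPM in donors 1, 2 and 3 at 80 dyne/cm2, against 924, 666 and 1094 CPM in set 2. It was the only member whose cultures at 80 dyne/cm2 all lay above their controls, as 8.63% of all genes tested did. The log2 fold change was 0.74 (SE 0.15, 95% interval 0.40 to 1.09, adjusted p = 0.0260). THBD was 1082, 690 and 1211 CPM against 999, 372 and 733 CPM. Its groups overlapped, because donor 2 at 80 dyne/cm2 was below the controls of the other donors, and the fit gave 0.57 (SE 0.16, 95% interval 0.20 to 0.94, adjusted p = 0.0688).

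Donor 1 had the smallest difference between 80 and 30 dyne/cm2 for all 4 genes and donor 2 the largest for KLF2, NOS3 and THBD. Here too the share of all genes with such an order was not computed. Without donor 2 the adjusted p of KLF2 was 0.152 and that of NOS3 0.0727, and without donor 3 they were 0.199 and 0.200. Without the donor term none of the 4 passed, with adjusted p values from 0.526 for NOS3 to 0.764 for THBD.

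**Figure D2:**
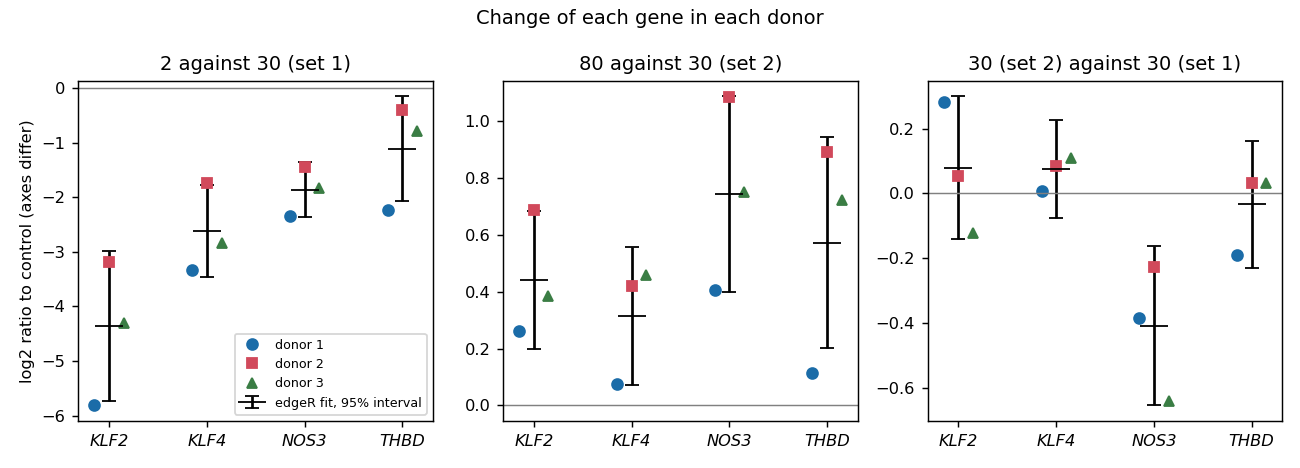
Log2 ratio of each gene to its control in each donor (points) with the edgeR estimate and its 95% interval (bars), for 2 against 30, 80 against 30 and set 2 against set 1 at 30 dyne/cm2. The y axes differ: KLF2 ranged from -5.81 to -3.19 at 2 dyne/cm2 and from 0.26 to 0.69 at 80 dyne/cm2, and NOS3 was lower in set 2 than in set 1 in all 3 donors.

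The 2 sets at 30 dyne/cm2 measured how far the genes move with no change in WSS. KLF2 (log2 difference of set 2 from set 1 0.08, adjusted p = 0.654), KLF4 (0.08, adjusted p = 0.527) and THBD (-0.03, adjusted p = 0.842) were not called. Their 95% intervals reached at most 0.30 in either direction. NOS3 was lower in set 2 by 0.38, 0.23 and 0.64 log2 units in donors 1, 2 and 3. Its fitted difference was -0.41 (SE 0.10, 95% interval -0.65 to -0.16, adjusted p = 0.142, unadjusted p = 0.00668), also not called. In edgeR's test 1 of 11163 genes, 0.00896%, was called between the sets. The count for the 4 genes was 0, with 1 at an unadjusted p under 0.05, and DESeq2 was not run on the sets.

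For NOS3 the choice of control set therefore mattered at supra-high WSS. Against set 1, NOS3 at 80 dyne/cm2 gave a log2 fold change of 0.33 (adjusted p = 0.495) in place of 0.74. In that view donor 1 had 1224 against 1206 CPM and donor 3 had 1842 against 1703 CPM, and donor 2 alone stood well apart with 1411 against 779 CPM. At 2 dyne/cm2 NOS3 was called against either set, with -1.45 against set 2.

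In order of mean level, each of the 4 genes ran from 2 dyne/cm2 through the sets at 30 dyne/cm2 to 80 dyne/cm2. KLF2 averaged 7.76 ± 4.64 CPM at 2 dyne/cm2, 144 ± 31.8 and 152 ± 36.7 CPM in sets 1 and 2, and 203 ± 20.4 CPM at 80 dyne/cm2 (SD, n = 3). KLF4 averaged 35.7 ± 12.7, 216 ± 45.1, 226 ± 43.5 and 282 ± 54.5 CPM, and THBD 311 ± 91.8, 741 ± 389, 701 ± 315 and 994 ± 271 CPM in the same order of groups. NOS3 averaged 334 ± 127, 1229 ± 463, 894 ± 216 and 1492 ± 317 CPM. Only the step between 2 and 30 dyne/cm2 exceeded 2-fold with an adjusted p under the threshold, for KLF2, KLF4 and NOS3.

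The responses to low and to supra-high WSS differed from each other for all 4 genes. The tested value was the log2 fold change at 80 minus that at 2 dyne/cm2, each against its own controls, in a single fit over 12 libraries with the donor as a term. It was 4.62 for KLF2 (SE 0.58, adjusted p = 0.000445), 2.87 for KLF4 (SE 0.37, adjusted p = 0.000537), 2.60 for NOS3 (SE 0.26, adjusted p = 0.000155) and 1.64 for THBD (SE 0.41, adjusted p = 0.0115). Such a difference was common: 37.1% of 11568 genes passed this test, which had no fold limit, and 17.9% with the higher value at 80 dyne/cm2. For THBD it was lost without donor 3 (1.75, adjusted p = 0.0887) and without the donor term (1.72, adjusted p = 0.0942).

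The spread between donors within a condition was uneven as well. KLF2 was most variable at 2 dyne/cm2, where the highest donor had 4.36 times the lowest, and least at 80 dyne/cm2, where the ratio was 1.22. THBD was most variable at 30 dyne/cm2, with a ratio of 3.14 in set 1 and 2.69 in set 2, and less so at 2 dyne/cm2 (1.71) and 80 dyne/cm2 (1.76). Donor 2 had the lowest KLF2, KLF4 and THBD of the donors in both sets at 30 dyne/cm2 and at 80 dyne/cm2, and the highest KLF2 and KLF4 at 2 dyne/cm2.

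Across the 12 libraries, after each donor's mean log2 CPM was subtracted, KLF2 and KLF4 had a Pearson correlation of 0.990. KLF2 correlated with NOS3 at 0.954 and with THBD at 0.922, and NOS3 with THBD at 0.936. Among the 11042 genes tested in both comparisons, KLF4 ranked 4th, NOS3 156th and THBD 386th by correlation with KLF2. By correlation with KLF4, NOS3 ranked 286th and THBD 543rd. Many genes outside the 4 thus followed KLF2 and KLF4 more closely than NOS3 or THBD did. These correlations describe 12 libraries that share donors and are dominated by the step between 2 and 30 dyne/cm2. Among 9742 genes with a symbol, the patterns most like KLF2 were those of LFNG, a glycosyltransferase that modifies Notch receptors (r = 0.994), the metalloproteinase MMP28 (r = 0.993) and the secreted semaphorin SEMA3G (r = 0.991). For KLF4 they were ZDHHC14 (r = 0.996), SIGIRR, a damping receptor of the interleukin 1 family (r = 0.995), and RTN4RL1 (r = 0.995). For NOS3 they were SPEF1 (r = 0.992), the sialoglycoprotein SPN (r = 0.989) and PDLIM7 (r = 0.987), and for THBD CCDC28B (r = 0.976), SIDT2 (r = 0.971) and ASAP1 (r = 0.970). A correlation does not reflect the size of a change. CCDC28B, SIDT2 and ASAP1 gave log2 fold changes of only -0.29, -0.44 and -0.20 at 2 dyne/cm2, beside -1.11 for THBD.

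Genes known to act upstream of KLF2 were examined next. Of 12 tested genes of the MEKK3 to ERK5 cascade, the MEF2 factors, the histone deacetylases HDAC5 and HDAC7 and the cerebral cavernous malformation (CCM) complex, 1 was called at 2 dyne/cm2, beside 9.6% of all genes, and 4 had an adjusted p under the threshold whatever the fold, beside 25.8%. The called gene was HEG1, the endothelial receptor that holds the CCM proteins at cell junctions, which fell by 1.24 on the log2 scale (SE 0.19, adjusted p = 0.0144) from 1858 ± 226 to 779 ± 129 CPM. The list's median log2 fold change was -0.19, beside 0.00253 over all genes tested. With edgeR 0 of these genes were called at 80 dyne/cm2, with 3 at an unadjusted p under 0.05, DESeq2 also called 0, and the median was 0.08.

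Of the 15 other KLF genes in the table, 10 were tested, and KLF3 and KLF10 fell at 2 dyne/cm2 while KLF15 rose. The share called there over all genes was 9.6%. KLF10, a factor induced by TGF-beta, fell by 1.31 (SE 0.13, adjusted p = 0.00681) from 169 ± 18.4 to 67.5 ± 7.44 CPM. KLF3, a repressor of the family, fell by 1.11 (SE 0.08, adjusted p = 0.00409). KLF6, which ECs also express, gave -0.42 (SE 0.09, adjusted p = 0.0283), short of 2-fold, and 0.25 (adjusted p = 0.225) at 80 dyne/cm2.

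KLF15, a factor known as a glucocorticoid target, ran against KLF2 and KLF4. It averaged 10.9 ± 2.01 CPM at 2 dyne/cm2, 0.975 ± 0.349 and 2.02 ± 0.436 CPM in sets 1 and 2, and 0.700 ± 0.134 CPM at 80 dyne/cm2. Its log2 fold change was 3.50 (SE 0.34, adjusted p = 0.00637) at 2 dyne/cm2 and -1.52 (SE 0.26, adjusted p = 0.0155) at 80 dyne/cm2. The second value rested on 20 to 97 reads per library, and it was not called without donor 3 (adjusted p = 0.124). It also depended on the control set, since KLF15 was higher in set 2 than in set 1 (log2 difference 1.07, SE 0.34, adjusted p = 0.194). Against set 1 KLF15 at 80 dyne/cm2 was not among the genes tested, and with both sets as control it was not called. Over the 10 tested genes of the family the median log2 fold change at 2 dyne/cm2 came to -0.45, and the one at 80 dyne/cm2 to 0.01.

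**Figure D3:**
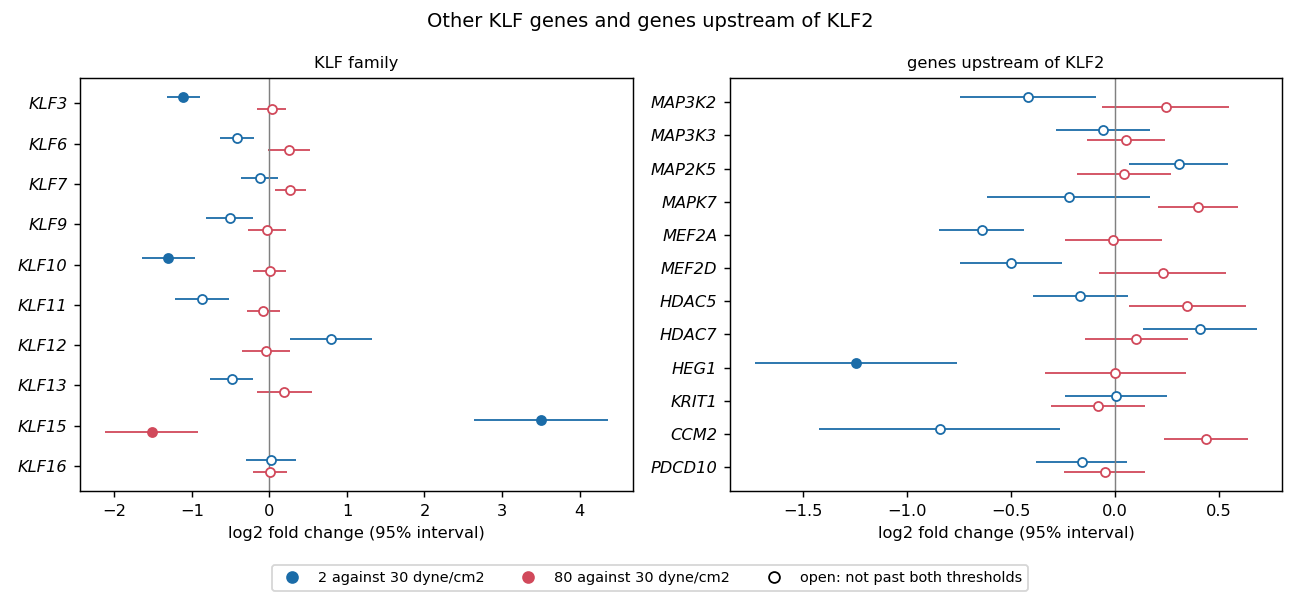
Log2 fold change with its 95% interval for the other KLF genes and for genes upstream of KLF2, at 2 (blue) and 80 (red) dyne/cm2 against 30 dyne/cm2. Filled points passed both thresholds: KLF15 lay at 3.50 and -1.52, and HEG1 was the only filled point among the upstream genes.

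Genes that KLF2 or KLF4 is known to raise were lower at 2 dyne/cm2. Of 11 tested, 8 fell and 0 rose, beside 4.54% of all genes called lower, with a median of -2.42. NPPC, which encodes the relaxing C-type natriuretic peptide, fell by 4.89 (SE 0.72, adjusted p = 0.0135), and its level at 2 dyne/cm2 was at most 0.484 CPM (15 reads). The angiopoietin receptor TEK fell by 2.95 (SE 0.24, adjusted p = 0.00479), the water channel AQP1 (-2.85, SE 0.16, adjusted p = 0.00331), the inositol trisphosphate receptor ITPR3 (-2.68, SE 0.34, adjusted p = 0.00946) and CYP1B1 (-2.45, SE 0.43, adjusted p = 0.0197). The scaffold SLC9A3R2, ASS1 and NQO1 also fell.

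Under supra-high WSS, 4 of the same 11 genes rose and 0 fell, beside 1.14% of all genes called higher, with a median of 0.24. NPPC rose by 2.38 (SE 0.26, adjusted p = 0.00446), AQP1 by 2.02 (SE 0.25, adjusted p = 0.00639), ITPR3 by 1.14 (SE 0.11, adjusted p = 0.00385) and SLC9A3R2 by 1.02 (SE 0.17, adjusted p = 0.0160). These targets passed the fold limit where KLF2 and KLF4 did not. AQP1 alone of the list was also called against set 1 (1.90). There NPPC gave 2.02, SLC9A3R2 0.85 and ITPR3 0.65, none of them called. Against set 2 with no donor term the count was 0. Without donor 3, AQP1 (adjusted p = 0.0683) and SLC9A3R2 were not called, and SLC9A3R2 was not called without donor 2 either.

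Genes that KLF2 or KLF4 is known to lower did not move one way. At 2 dyne/cm2, 4 of 13 tested rose and 2 fell, beside 9.6% of all genes called, with a median of -0.39. Those that rose were the vasodilator peptide ADM (3.15, SE 0.16, adjusted p = 0.00293), the vasoconstrictor EDN1 (2.90, SE 0.49, adjusted p = 0.0182), ANGPT2, the ligand that competes for TEK (2.52, SE 0.47, adjusted p = 0.0214), and the angiotensin converting enzyme ACE (1.97, SE 0.46, adjusted p = 0.0359). ACE and ANGPT2 were not called without donor 2 (adjusted p = 0.0731 and 0.0577), and ACE gave 0.84 against set 2. The plasminogen activator PLAU fell by 3.19 (SE 0.12, adjusted p = 0.00187), and the other that fell was the adhesion molecule ICAM1 (-1.02, adjusted p = 0.0125), which was under 2-fold without donor 2 or donor 3 and against set 2 (-0.90) or both sets (-0.96). VCAM1, an adhesion molecule for leukocytes, gave -0.23 (SE 0.19, adjusted p = 0.390).

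Under supra-high WSS, PLAU rose (1.18, SE 0.12, adjusted p = 0.00394) and ACE fell (-1.24, SE 0.13, adjusted p = 0.00394), and the list's median was 0.11. EDN1, which opposes nitric oxide in vessel tone, gave -0.65 (SE 0.09, adjusted p = 0.00920), short of 2-fold, and 0.04 against set 1. VCAM1 gave -0.12 (adjusted p = 0.785). Against set 1 neither PLAU nor ACE was called, with values of 0.10 and -0.11.

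**Figure D4:**
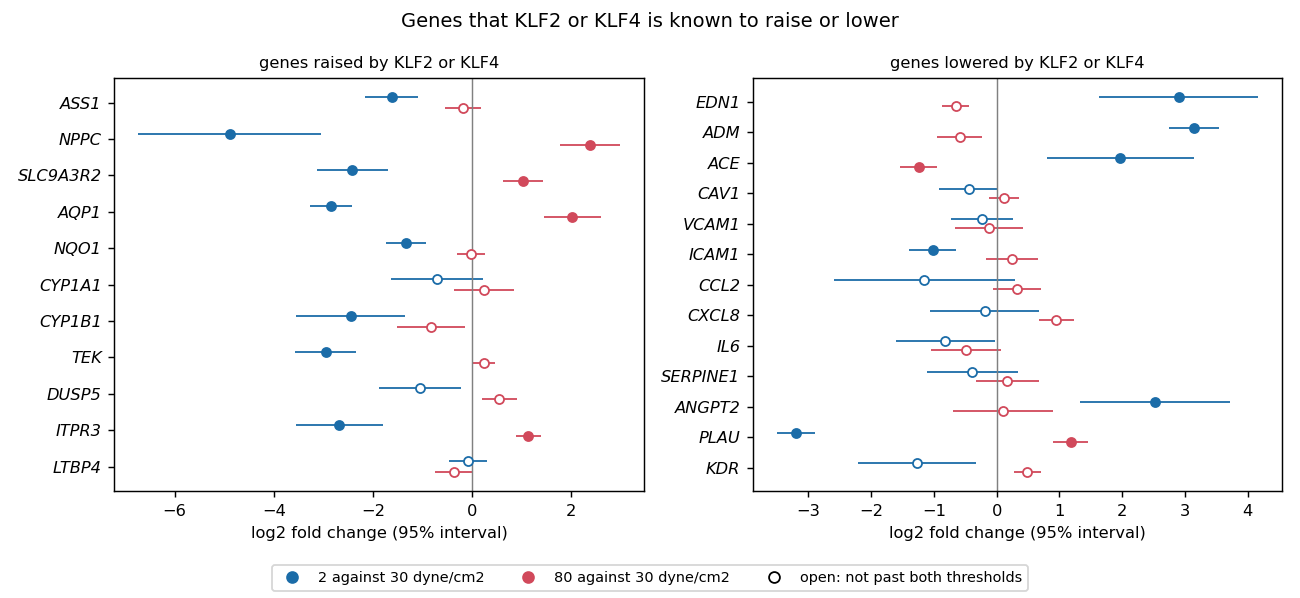
Log2 fold change with its 95% interval for genes that KLF2 or KLF4 is known to raise (left) and to lower (right), at 2 (blue) and 80 (red) dyne/cm2 against 30 dyne/cm2. All 8 filled blue points on the left are below 0 and all 4 filled red points above it, whereas filled points on the right lie on both sides. Both lists were drawn up with earlier results of these data known.

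Around NOS3, 2 genes for the supply of its substrate and cofactor fell at low WSS and others of the same routes were not called. GCH1, the first enzyme of tetrahydrobiopterin synthesis, fell by 1.75 (SE 0.14, adjusted p = 0.00488) from 28.5 ± 3.03 to 8.38 ± 0.817 CPM. ASS1, which helps recycle citrulline to arginine, fell by 1.62 (SE 0.21, adjusted p = 0.0101) from 161 ± 24.2 to 54.8 ± 22.1 CPM. In the same routes, SPR of tetrahydrobiopterin synthesis gave 0.99 (adjusted p = 0.0136), just short of 2-fold, ASL of arginine synthesis gave 0.29 (adjusted p = 0.0706) and PTS gave -0.09 (adjusted p = 0.573). PDE5A, which breaks down the cyclic GMP made in response to nitric oxide, rose by 1.31 (SE 0.17, adjusted p = 0.0107), and by 0.99, short of the fold limit, against set 2. These were the 3 called of 16 tested nitric oxide pathway genes, beside 9.6% of all genes, with a median of 0.16. By adjusted p whatever the fold, 6 of 16 passed, beside 25.8% of all genes. Supra-high WSS gave a count called of 0 with edgeR, with 9 at an unadjusted p under 0.05, and 0 with DESeq2, and ASS1 gave -0.18 (adjusted p = 0.503). The other synthase genes, NOS1 and NOS2, had at most 1 and 15 reads in any library.

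Around THBD, 5 of 10 tested genes of the protein C and tissue factor pathways were called at 2 dyne/cm2, 4 lower and 1 higher, with a median of -1.02. Of all genes tested there, 9.6% were called and 4.54% called lower. PROCR, the endothelial receptor that presents protein C to thrombomodulin, averaged 417 ± 80.3 CPM at 2 dyne/cm2 and 835 ± 285 CPM in set 1. Like THBD it was lower in 3 of 3 donors and missed the thresholds (-0.94, SE 0.26, adjusted p = 0.0557). The protease activated receptors F2RL1 and F2RL3 fell by 3.33 (SE 0.47, adjusted p = 0.0123) and by 2.25 (SE 0.26, adjusted p = 0.00849). The tissue factor pathway inhibitor TFPI fell by 1.65 (SE 0.31, adjusted p = 0.0227) and F5 (-1.38, SE 0.17, adjusted p = 0.00924), whereas TFPI2 rose by 1.06 (SE 0.10, adjusted p = 0.00593). F2RL1 was not called without donor 2 (adjusted p = 0.0514), and TFPI2 fell short of 2-fold without donor 1. Without the donor term, TFPI was the 1 gene of this list that was called.

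None of these 10 genes was called at 80 dyne/cm2 by edgeR, with 4 at an unadjusted p under 0.05, or by DESeq2. By adjusted p whatever the fold, 3 of the 10 passed, and they went both ways. PROCR gave 0.54 (SE 0.13, adjusted p = 0.0486), under 2-fold, beside 0.57 for THBD. PROS1 gave -0.58 (SE 0.10, adjusted p = 0.0161) and TFPI2 -0.51 (SE 0.10, adjusted p = 0.0230), opposite to THBD. At 2 dyne/cm2 PROS1 also ran against THBD, with 0.77 (SE 0.16, adjusted p = 0.0297), short of 2-fold.

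**Figure D5:**
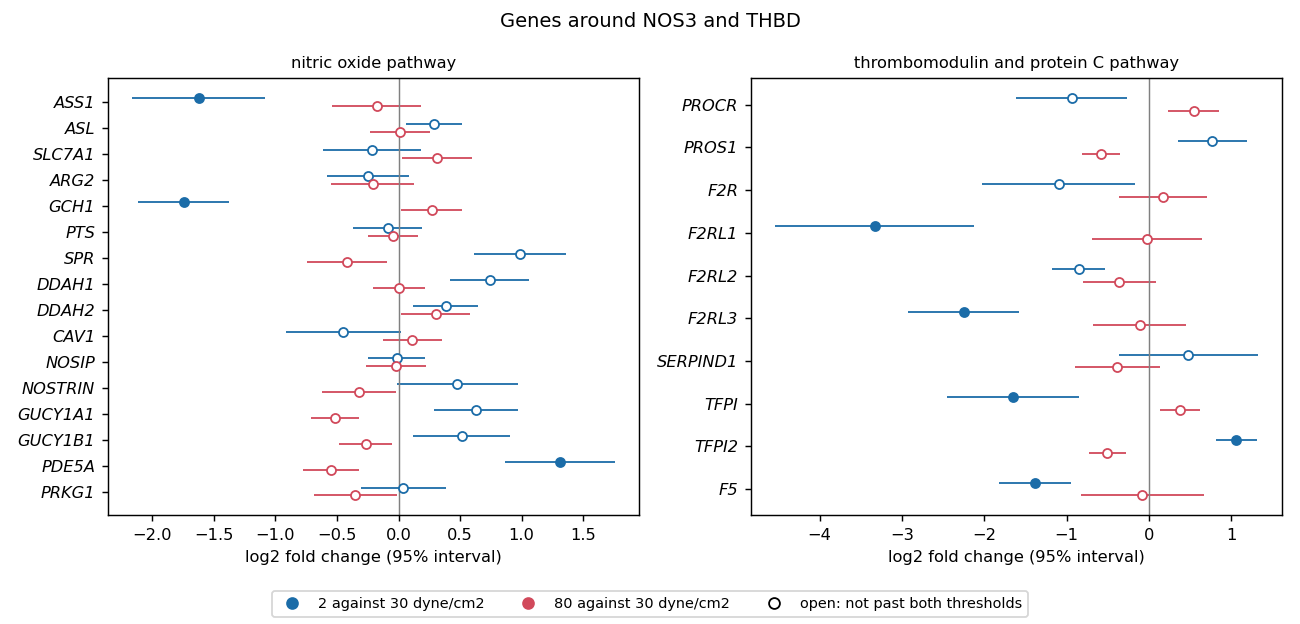
Log2 fold change with its 95% interval for genes of the nitric oxide pathway (left) and of the thrombomodulin and protein C pathway (right), at 2 (blue) and 80 (red) dyne/cm2 against 30 dyne/cm2. Filled points passed both thresholds, which none did at 80 dyne/cm2; GCH1 lay at -1.75 and F2RL1 at -3.33 at 2 dyne/cm2.

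Immediate early genes, which respond to handling as well as to flow, moved partly with the 4 genes. At 2 dyne/cm2, 3 of 14 tested fell, beside 4.54% of all genes called lower. NR4A1 fell by 3.81 (SE 0.41, adjusted p = 0.00741), FOS by 1.98 (SE 0.33, adjusted p = 0.0172) and DUSP1 by 1.73 (SE 0.20, adjusted p = 0.00815). FOS was not called without donor 1 or donor 2 (adjusted p = 0.0518 and 0.0532). Its level at 2 dyne/cm2 averaged 0.785 ± 0.223 CPM (16 to 36 reads), close to the 0.838 CPM of set 2 at 30 dyne/cm2. NR4A1 rose by 1.82 (SE 0.17, adjusted p = 0.00360) at 80 dyne/cm2, the 1 called of 12 tested, beside 2.2% of all genes. Yet NR4A1 also stood at 38.9 ± 27.7 CPM in set 1 and 13.8 ± 5.59 CPM in set 2, and FOS at 3.46 ± 2.32 and 0.838 ± 0.480 CPM, so both averaged lower in set 2, as NOS3 did. Against the other set NR4A1 gave 0.55 at 80 dyne/cm2 and DUSP1 -0.94 at 2 dyne/cm2, neither called. Their part in the results was not tested.

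Among the endothelial markers, TEK, FLT1 (-1.39, SE 0.11, adjusted p = 0.00441) and EMCN (-1.25, SE 0.28, adjusted p = 0.0341) fell at 2 dyne/cm2, 3 of 12 tested, beside 4.54% of all genes called lower. The markers did not all go this way. PECAM1 gave -0.71 (adjusted p = 0.0346) and CDH5 -0.11 (adjusted p = 0.521), whereas ROBO4 gave 0.50 (adjusted p = 0.0251) and ENG 0.15 (adjusted p = 0.407), all short of 2-fold. EMCN rose by 2.33 (SE 0.35, adjusted p = 0.0112) at 80 dyne/cm2, the 1 called there. The markers' medians were -0.41 and 0.21, and the members' medians were -2.24 and 0.51. The members were chosen as flow-responsive genes with earlier results known, and TEK is also among the raised targets. The sizes of these medians therefore cannot separate a change in endothelial content from a response to flow, which was not tested. EMCN at 2 dyne/cm2 was not called without donor 3 or against set 2 (-0.53), nor at 80 dyne/cm2 against set 1 (1.55), and FLT1 gave -0.88 against set 2.

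Of the fibroblast and pericyte markers, 3 of 6 tested were called at 2 dyne/cm2, beside 9.6% of all genes. The list's medians were 1.03 at 2 and -0.57 at 80 dyne/cm2, opposite in sign to those of the 4 genes. In the test of the difference between the responses, 5 of 6 passed, 4 lower and 1 higher at 80 dyne/cm2, beside 37.1% of all genes. COL1A2 gave 0.96 (adjusted p = 0.0325) at 2 dyne/cm2, short of 2-fold. PDGFRB rose by 2.41 (SE 0.26, adjusted p = 0.00758) and PDGFRA by 1.09 (SE 0.23, adjusted p = 0.0300), and PDGFRA was not called without donor 1 or donor 3, or against set 2 (0.92). CSPG4, which was called lower, had at most 1 read in any library at 2 dyne/cm2, and it rose at 80 dyne/cm2 by 2.14 (SE 0.29, adjusted p = 0.00792), the 1 of 5 tested there, which was not called without donor 3 or against set 1 (0.55). CD68 of the leukocyte list fell by 1.17 (SE 0.15, adjusted p = 0.00961) at 2 dyne/cm2, 1 of 2 tested, and the list had 0 called and 0 at an unadjusted p under 0.05 in edgeR at 80 dyne/cm2. Of 2 smooth muscle markers tested, 0 were called in either comparison, with 1 at an unadjusted p under 0.05 at 2 dyne/cm2. These lists were not fitted with another tool.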

How the data were processed

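RNA of 12 cultures was sequenced as single-end reads. The deposited table holds raw counts of reads per gene: the authors aligned them with STAR 2.4 to Sscrofa11.1, kept uniquely mapped reads and summed these over the exons of a gene with featureCounts 1.4.6, with no strand setting stated. Of 21153 genes, 14572 had a symbol in the reference table. THBD was paired with its gene ID by the study's supplementary gene list, because the reference pairs that symbol with an ID not in this table, and SLC9A3R2 is the older name of NHERF2. Positions are from RefSeq on the same assembly, looked up by gene symbol.

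The fits used edgeR 4.0.16 (under R 4.3.3) with TMM normalization, at least 1 CPM in at least 3 libraries (2 where a donor was left out), quasi-likelihood test, donor as a term, and Benjamini-Hochberg adjustment over all genes tested. The CPM filter stands in for the authors' RPKM filter, since gene lengths were not used here. Standard errors and 95% intervals come from the F statistic. The donor term follows the labels, which name the donor of each culture. Of 18 pairs of libraries from the same donor, all had deviations from the group means that correlated, at 0.62 to 0.861, against -0.512 to -0.189 in 36 pairs from different donors and conditions. Whether cultures of a donor shared a run is not given. DESeq2 1.42.0 was an alternative. The edgeR fit at low WSS was tested on simulated data.

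Members and the 11 gene lists were chosen with earlier results of these data known, the lists from general knowledge. Besides the 4 genes, the text names up to 5 called genes per list and comparison with the largest change, KLF6, ASS1, PROCR, EDN1 and VCAM1, and for each member the 3 genes most correlated with it. ICAM1, NQO1, SPR, ASL, PTS, NOS1, NOS2, CDH5, SMTN, ACTA2, MYH11, DES, PTPRC and CD3E were named after their values were seen. So were PROS1, PECAM1, ROBO4 and ENG.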

Additional observations from a re-analysis of the deposited data

How the results depend on the processing

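The smallest library held 29606854 counted reads, and the lowest value of the 4 genes rested on 106 reads. Whether depth or the spread between 3 donors limited a call was not tested. In all 14 alternatives KLF2, KLF4 and NOS3 kept their direction and their call at 2 dyne/cm2, with ranges of -4.99 to -3.72, -3.07 to -2.27 and -2.07 to -1.45. THBD kept its direction in all 14, from -1.49 to -0.58, and was called in 4: with 1 fit over 12 libraries (-1.09), with both sets as control (-1.05), with DESeq2 (-1.11) and with the likelihood ratio test (-1.11). Under supra-high WSS the 4 genes kept their direction in all 14 alternatives, and KLF2 (0.44) and NOS3 (0.74) were called where the fold limit was dropped. Causes were not tested.

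Leaving the donor block out lowered several counts. At 2 dyne/cm2 the genes called went from 1078 to 635, the raised targets from 8 to 5, the lowered targets from 6 to 3 and the protein C list from 5 to 1. With the block left out no gene was called at 80 dyne/cm2 (0 of 11187 in edgeR, 929 at an unadjusted p under 0.05, smallest adjusted p 0.0640), so the raised targets, lowered targets and KLF family each had 0. DESeq2 was run with the block only and called 236 genes. Between the sets the count without the block was 0 (473 at an unadjusted p under 0.05). The difference of the THBD responses was 1.72 without the block. The block changed no other call of the 4 genes. Among the other named genes, every call at 80 dyne/cm2 was lost without it, and at 2 dyne/cm2 those of ACE, ANGPT2, CYP1B1, EMCN, F2RL1, F2RL3, F5, FOS, ICAM1, NPPC, NQO1, PDGFRA, PDGFRB and TFPI2.

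With the adjusted p alone, 2895 genes were called at 2 and 940 at 80 dyne/cm2. At 2 dyne/cm2 this gave 4 upstream genes, 8 of the KLF family and 6 of the nitric oxide list, and at 80 dyne/cm2 it gave 2 upstream genes, 2 of the nitric oxide list, 3 of the protein C list and 5 lowered targets. With the other set as control at 80 dyne/cm2, 24 genes, 1 raised target, 0 lowered targets and 0 of the KLF family were called. With both sets the counts were 84, 2, 0 and 0, and with 1 fit over 12 libraries 136 genes and 1 lowered target.

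Leaving out each donor in turn gave 144 to 343 genes called at 80 dyne/cm2, 0 to 122 between the sets (1044 at an unadjusted p under 0.05 where the count was 0), 3 to 8 lowered targets and 1 to 2 upstream genes at 2 dyne/cm2, 2 to 4 raised targets and 0 to 1 of the KLF family at 80 dyne/cm2, and a THBD difference of 1.37 to 1.87. The 2 lower counts at 80 dyne/cm2 were 151 without donor 2 and 144 without donor 3, and the 122 came without donor 2.

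Values near 0 changed sign. Between the sets KLF2 ranged from -0.0280 to 0.176 and THBD from -0.0742 to 0.0387 on leaving out a donor, negative for KLF2 and positive for THBD without donor 1. VCAM1 at 2 dyne/cm2 was 0.0786 with both sets and 0.441 with the other set, and at 80 dyne/cm2 it ranged from -0.464 to 0.213 on leaving out a donor. With the other set at 80 dyne/cm2 EDN1 was 0.0415 and ASS1 0.0246, and ASS1 ranged from -0.379 to 0.0563 on leaving out a donor.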
